A study of Mus musculus with 6 samples.

Results

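Conventional type 1 dendritic cells (cDC1) are the dendritic cells that take up dying cells and show fragments of them on MHC class I to CD8 T cells, a route called cross-presentation. In the mouse they are told from other phagocytes by surface proteins such as the chemokine receptor XCR1, the dead-cell receptor CLEC9A (DNGR-1) and the adhesion molecule CADM1, and their cross-presentation of cell-borne antigen needs the BEACH-domain protein WDFY4. In mucosa and skin they are usually the scarcer of the conventional dendritic cell types and many carry the integrin CD103, encoded by Itgae. The 8 genes described here are the surface genes Clec9a, Ly75, Xcr1, Cadm1 and Btla, the cross-presentation gene Wdfy4, and Snx22 and Naaa, which encode proteins of the endosome and lysosome. They were chosen by name, and every non-control probe that carried one of the names was taken. That gave 13 of the 56605 non-control probes, and the 8 genes were all among the 20817 genes tested.

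RNA came from 3 sorted cell fractions of sublingual mucosa, with 2 arrays each; the mice were of the inbred strain BALB/c. Fr1 was the CD11c+CD206- fraction, Fr2 the CD11c-F480+CD206- fraction and Fr3 the F480+ fraction with high CD206. CD11c (encoded by Itgax) is an integrin of dendritic cells and some macrophages, F480 (encoded by Adgre1) is a macrophage antigen, and CD206 (encoded by Mrc1) is the mannose receptor of tissue macrophages. All the mice had been painted with FITC, a fluorescent contact sensitiser, 2 times on this mucosa, so no fraction stands for untreated tissue. The series design gives the 2 arrays of a fraction as independent experiments; the number and the age of the mice behind each sort are not given in the sources used here. The fractions were gated on CD11c, F480 and CD206 and not on any product of the 8 genes, so Fr1 holds all CD11c+CD206- cells and not cDC1 alone. In sorted bulk RNA, fewer cells of a type and less RNA per cell cannot be told apart. The series title sets the question as the expression profiles of oral sublingual dendritic cell and macrophage subsets.

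Levels below are log2 processed intensities minus the array's 75th percentile, so a level of 0 is the brightness that 75% of probes do not exceed, and a difference of 1 is a doubling. No probe's level can be set against another probe's. Between 44.6% and 52.4% of the spots of an array were well above background, which is the scanner software's own call of a spot against its surroundings. Between the replicates of a fraction, Pearson's r across genes, which are no independent replicates, was 0.883 (Fr1), 0.898 (Fr2) and 0.796 (Fr3). The replicates of Fr3 differed by probe composition: among kept probes with over 40% T, 33.8% were over 8-fold lower on replicate 2, against 0.436% of kept probes with at most 20% T. The Fr1 and Fr3 arrays lay on 1 slide and the Fr2 arrays on another, so fraction and slide cannot be told apart in a difference that involves Fr2.

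The sort markers were read first. Mrc1 was at -3.75 and -3.19 in Fr1, not well above background on either array, at 0.97 and 0.65 in Fr2, and at 4.10 and 3.01 in Fr3. Itgax was at 3.05 and 2.66 in Fr1, 3.10 and 1.53 in Fr2, and 0.52 and 1.29 in Fr3. Adgre1 was at 4.83 and 4.70 in Fr1, 6.27 and 6.29 in Fr2, and 5.78 and 5.66 in Fr3. Mrc1 was highest in Fr3, but it was well above background on both Fr2 arrays, and at least 6.71-fold higher there than in Fr1 (limma adjusted p = 0.239), although both fractions were gated as CD206-. Itgax in Fr2 overlapped Fr1 although Fr2 was gated as CD11c-negative, and Adgre1 was well above background in Fr1.

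The probes are shown first because 4 of the genes have several, and probes of 1 gene did not always give the same pattern. Each line gives the 30 bases of a 60-base probe that hold the most T, 5′ to 3′, with T in capitals and other bases in lower case. Among kept probes, a level over 8-fold lower on Fr3 replicate 2 was more frequent in probes rich in T. It was not limited to them. The sequences and the mm9 coordinates are those of the array design, and the exon or UTR place of a probe is not given there.
Clec9a, probe with 30% T: cTTTgcagaTTTcagTTgaccTTgTccaTT
Clec9a, probe with 23.3% T: aTTTggaTccTgcaTcTgaaagaTacaacT
Ly75, probe with 43.3% T: TTTTccTaaaaTaTTTTTcTTgaggccTcT
Ly75, probe with 28.3% T: agaggaaaTTaaggacTTTgTgcaTTTgTT
Xcr1, probe with 28.3% T: TTTTTTaagTgTcTgTTaaTgagggggaaa
Cadm1, probe with 45% T: TTTcTTTTaTTTgTgTTaacggTgacTgcT
Cadm1, probe with 15% T: acTccgaagaaaagaaagagTacTTcaTcT
Cadm1, probe with 18.3% T: cTgTgccgagaTgaaTgcacTTacTgTaaT
Btla, probe with 38.3% T: TTTaTgcTcTTaTTccTacTTagTaaaTaT
Btla, probe with 20% T: gagTTgagaaTgTaTccaTaaacagTgaaT
Of the 13 probes, 3 held over 30% T, 1 each for Cadm1, Ly75 and Btla. Wdfy4, Naaa and Snx22 each had a single probe of 25% to 28.3% T.

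Across the 13 probes, measurements well above background were most frequent in Fr1. They were 22 of 26 in Fr1 (12 and 10 of the 13 probes on its arrays), 17 of 26 in Fr2 (8 and 9) and 11 of 26 in Fr3 (7 and 4). The processed intensities were low throughout: the brightest probe, the T-rich probe of Cadm1, read 165 and 119 units in Fr1, 158 and 88.6 in Fr2, and 110 and 4.36 in Fr3. Of the 13 probes, 11 passed the filter on dim probes (both arrays of some fraction well above background) and were kept, and each gene is given below by the brightest kept probe, with its other probes beside it.

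**Figure D1:**
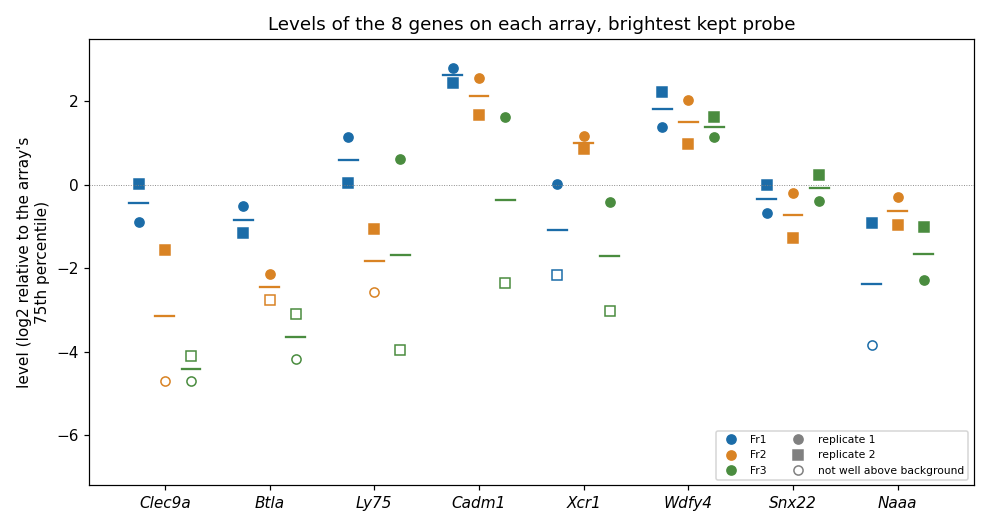
Level of each of the 8 genes (log2, with the 75th percentile of an array at 0) on the 6 arrays, with Fr1 left, Fr2 in the middle and Fr3 right within each gene, circles for replicate 1, squares for replicate 2, open symbols for spots not well above background and short lines for the mean of 2 arrays. Clec9a and Btla are not well above background on either Fr3 array, Xcr1 is highest on the Fr2 arrays, and Wdfy4 and Snx22 overlap between all fractions.

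No difference of the 8 genes passed the test in any of the 3 comparisons (limma, Benjamini-Hochberg adjusted p under 0.05 over all genes), and the smallest adjusted p of a member was 0.292, for Btla in Fr1 against Fr3. The test called almost nothing else: 0.0048% of the genes in Fr1 against Fr3, 0% in Fr1 against Fr2 and 0.0048% in Fr2 against Fr3. That was 1 gene, Gm2042, which was lower in Fr1 and in Fr2 than in Fr3 and is named after its values were seen. All limma p-values here are two-sided. The counts of the 8 genes below are therefore given at an unadjusted p under 0.05 and by whether the arrays of the fractions overlap, with the share of all genes that met the same rule. These describe the arrays and are not calls.

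Clec9a encodes a C-type lectin that binds actin exposed by dead cells and directs their content to cross-presentation. The brightest kept probe (mouse chromosome 6, bases 129372492 to 129372551, mm9, plus strand) was at -0.89 and 0.03 in Fr1, -4.71 and -1.57 in Fr2, and -4.70 and -4.11 in Fr3. Both Fr1 arrays were above all 4 others, Fr2 was well above background on replicate 2 alone, and Fr3 on neither array. Set against the lowest signal called above background, Clec9a was at least 3.56-fold higher in Fr1 than in Fr3, where the measured difference was 3.97 (SE 1.04, limma unadjusted p = 0.0071, adjusted p = 0.346). Against Fr2 the difference was 2.71 (SE 1.04, limma adjusted p = 0.487).

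The second Clec9a probe begins 147 bases away (129372345 to 129372404) and was at 1.11 and -2.05 in Fr1, -2.76 and -4.82 in Fr2, and -4.75 and -2.24 in Fr3. It was well above background on 1 of the 6 arrays, Fr1 replicate 1, and was not kept; Fr1 replicate 2 lay just above the higher Fr3 array. The probes differed by up to 3.25 on a single array, and across the 6 arrays, which share these libraries, their levels correlated with r = 0.43 (Pearson, given as a description). Fr1 was thus the fraction in which Clec9a was above background with each probe, on both arrays with one probe and on 1 array with the other.

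Ly75 encodes DEC-205, an endocytic receptor of cDC1, Langerhans cells and some B cells. The brightest kept probe (chromosome 2, bases 60130362 to 60130421, minus strand, 43.3% T) was at 1.15 and 0.05 in Fr1, -2.57 and -1.06 in Fr2, and 0.61 and -3.97 in Fr3. The Fr1 arrays lay above both Fr2 arrays, but Fr3 replicate 1 fell between the Fr1 arrays and Fr3 replicate 2 was not well above background, a gap of -4.58 between replicates of 1 fraction. The difference between Fr1 and Fr3 was 2.28 (SE 1.44, limma adjusted p = 0.648, 95% interval -1.16 to 5.72) with both Fr3 arrays and -0.01 without Fr3 replicate 2. Without Fr3 replicate 1 it was 4.57 with a limma adjusted p of 0.0290, where the lone Fr3 array is assumed to vary like the other fractions.

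A second Ly75 probe 56049 bases away (60186411 to 60186470, 28.3% T) was at -1.14 and -2.76 in Fr1, -3.77 and -3.59 in Fr2, and -4.88 and -2.91 in Fr3. Fr1 replicate 1 was its only spot well above background, so it was not kept. Neither Fr3 spot of this probe was well above background, so the gap that the T-rich probe showed between Fr3 replicates cannot be read from it. Against Fr2, the T-rich probe gave a difference of 2.42 in Fr1 (SE 1.44, limma adjusted p = 0.620).

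Btla encodes an inhibitory receptor of the CD28 family that binds HVEM and is carried by B cells, T cells and cDC1. The kept probe with the higher mean (chromosome 16, bases 45252118 to 45252177, plus strand, 20% T) was at -0.50 and -1.15 in Fr1, -2.13 and -2.75 in Fr2, and -4.17 and -3.10 in Fr3. The 3 fractions did not overlap, with Fr1 highest and Fr3 lowest, and neither Fr3 array was well above background. Btla was at least 2.70-fold higher in Fr1 than in Fr3, with a measured difference of 2.81 (SE 0.64, limma unadjusted p = 0.0035, adjusted p = 0.292). Against Fr2 the difference was 1.61 (SE 0.64, limma adjusted p = 0.501).

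The other Btla probe, 787 bases along (45252905 to 45252964, 38.3% T), was at 0.57 and 0.18 in Fr1, -3.12 and -4.74 in Fr2, and -4.64 and -4.04 in Fr3. It was well above background on the Fr1 arrays and on no other. With every probe fitted on its own, it was at least 6.21-fold higher in Fr1 than in Fr3 (limma adjusted p = 0.144) and at least 7.96-fold higher in Fr1 than in Fr2 (adjusted p = 0.221). The Btla probes moved together over the 6 arrays (r = 0.918, a description), although they differ in T content, and of the 4 genes with several probes Btla had the highest correlation between probes.

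B and T cells also carry BTLA, so their genes were read beside it. Of the 10 B cell genes 4 were not well above background on any array, Cd79a, Blk and Vpreb3 among them. The summed level of the list of 10 was 59.1 to 80.9 times the 75th percentile in Fr1, 53.7 to 79.2 times in Fr2 and 52.8 to 66.9 times in Fr3. The summed level of 12 T cell genes was 16.9 to 29.1 times in Fr1, 18.3 to 28.0 times in Fr2 and 14.1 to 29.5 times in Fr3. Most of the B cell sum came from Cd22 and Ms4a1. Of 5 tested B cell genes, 4 were higher in Fr1 than in Fr3, with a median difference of 1.12 and none with a limma unadjusted p under 0.05. Of 9 tested T cell genes, 6 were higher in Fr1 than in Fr3, with a median difference of 0.15. The part of B and T cells in the Btla level was not tested.

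Xcr1 encodes the receptor for the chemokine XCL1, made by NK cells and CD8 T cells, and is among the most selective surface genes of cDC1 in the mouse. Its single probe (chromosome 9, bases 123761482 to 123761541, minus strand) was at 0.03 and -2.17 in Fr1, 1.16 and 0.85 in Fr2, and -0.41 and -3.02 in Fr3. The Fr2 arrays were above all others, and on the second replicate of both Fr1 and Fr3 the spot was not well above background. The mean was -1.07 ± 1.55 in Fr1, 1.01 ± 0.22 in Fr2 and -1.71 ± 1.85 in Fr3 (SD, n = 2 each).

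For Xcr1 the difference was 0.64 between Fr1 and Fr3 (SE 1.07, limma adjusted p = 0.917, 95% interval -1.90 to 3.18) and -2.08 between Fr1 and Fr2 (SE 1.07, limma adjusted p = 0.574). Between Fr2 and Fr3 it was 2.72 (SE 1.07, limma unadjusted p = 0.0392, adjusted p = 0.541), the only difference of the 8 genes in that comparison with an unadjusted p under 0.05. Without Fr3 replicate 2 the Fr1 to Fr3 difference of Xcr1 was -0.66. The Xcr1 probe holds 28.3% T, as the Snx22 probe does, and its gap between Fr3 replicates was -2.61, against 0.62 for the Snx22 probe.

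Genes of several other cell types were also higher on the Fr2 arrays, where Xcr1 was highest. The summed level of 9 neutrophil genes was 303 to 367 times the 75th percentile in Fr1, 794 to 818 times in Fr2 and 173 to 176 times in Fr3. That of 7 eosinophil genes was 22.6 to 24.7 times in Fr1, 92.7 to 181 times in Fr2 and 7.30 to 12.5 times in Fr3, and that of 7 monocyte genes was 15.8 to 41.7, 85.7 to 89.1 and 8.37 to 15.9 times. No gene of these 3 lists was below background on both Fr2 arrays. Their part in the Xcr1 level of Fr2 was not tested.

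Cadm1 encodes a cell adhesion molecule of cDC1 that is also made by nerve, mast and epithelial cells. The brightest kept probe (chromosome 9, bases 47658965 to 47659024, plus strand, 45% T) was at 2.81 and 2.43 in Fr1, 2.57 and 1.68 in Fr2, and 1.63 and -2.36 in Fr3. Fr1 and Fr2 overlapped, the Fr3 arrays lay below all 4, replicate 1 only just, and Fr3 replicate 2 was not well above background, a gap of -3.99 from replicate 1. The difference was 2.99 between Fr1 and Fr3 (SE 1.23, limma unadjusted p = 0.0469, adjusted p = 0.602) and 0.99 without Fr3 replicate 2. Without Fr3 replicate 1 it was 4.98 with a limma adjusted p of 0.0166.

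A Cadm1 probe 551 bases upstream (47658414 to 47658473, 15% T) has the lowest T content of the 13. It was at 0.26 and -0.26 in Fr1, -0.37 and 2.15 in Fr2, and -4.73 and -3.84 in Fr3. All 4 arrays of Fr1 and Fr2 were well above background and neither Fr3 array was, so the gap between Fr3 replicates cannot be read from this probe. Fitted on its own, the probe was at least 4.79-fold higher in Fr1 than in Fr3 (limma adjusted p = 0.235) and at least 8.90-fold higher in Fr2 than in Fr3 (adjusted p = 0.136). The difference between Fr1 and Fr2 was -0.89 (adjusted p = 0.781).

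The third Cadm1 probe (47600600 to 47600659, 18.3% T) lies 57814 bases from that one and is assigned to another transcript model in the array design. It was at -1.29 and -0.61 in Fr1, -1.62 and -1.88 in Fr2, and -1.36 and -0.47 in Fr3. It was well above background on all 6 arrays, and its Fr1 and Fr3 arrays overlapped, with a difference of -0.04 (limma adjusted p = 0.995 with every probe fitted on its own). The probes of Cadm1 thus differed in pattern: the 2 that lie 551 bases apart were lower in Fr3 than in the other fractions, and the distant probe was not. Its levels correlated with theirs at r = -0.490 and -0.553 over the 6 arrays, as a description.

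**Figure D2:**
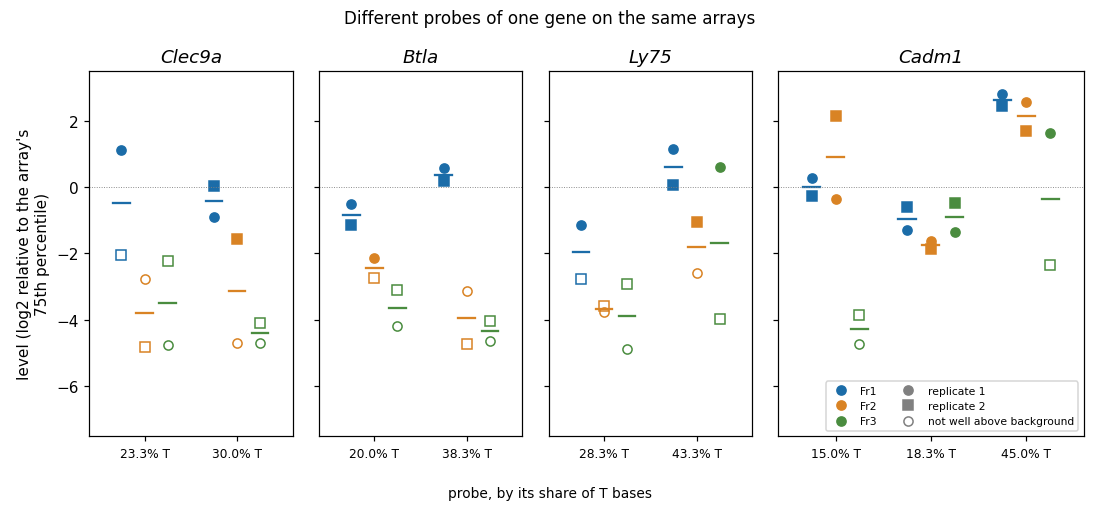
Level of every probe of Clec9a, Btla, Ly75 and Cadm1 (log2, with the 75th percentile of an array at 0), ordered by T content within each gene, with Fr1 left, Fr2 in the middle and Fr3 right, symbols as for replicates 1 and 2, open symbols for spots not well above background and lines for means. Both Btla probes are highest in Fr1, while 2 of the 3 Cadm1 probes are lowest in Fr3 and the one with 18.3% T is not.

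Cells outside the dendritic lineage that make CADM1 were read beside it. Of 8 mast cell genes, 6 were not well above background in Fr1, 5 in Fr2 and 4 in Fr3, and their summed level was 2.84 to 6.39 times the 75th percentile in Fr1, 3.00 to 11.6 times in Fr2 and 3.14 to 3.80 times in Fr3. Of 12 epithelial genes 7 were not above background in Fr1, 2 in Fr2 and 4 in Fr3, with summed levels of 193 to 247, 222 to 237 and 191 to 298 times. The epithelial sum was carried by Trp63, at 7.46 to 8.17 on every array. The part of these cells in the Cadm1 level was not tested.

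Wdfy4 encodes a BEACH-domain protein that mouse cDC1 need in order to cross-present cell-associated antigen, and B cells also make it. Its probe (chromosome 14, bases 33772821 to 33772880, minus strand) was at 1.40 and 2.24 in Fr1, 2.04 and 0.97 in Fr2, and 1.14 and 1.62 in Fr3. It was well above background on all 6 arrays and the 3 fractions overlapped. The difference was 0.44 between Fr1 and Fr3 (95% interval -1.10 to 1.98, limma adjusted p = 0.898), 0.31 between Fr1 and Fr2 (-1.23 to 1.85) and 0.13 between Fr2 and Fr3 (-1.42 to 1.67). These intervals reach more than a doubling either way, so 2 arrays a fraction left the order of the 3 fractions undetermined.

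Snx22 encodes a sorting nexin, one of the proteins that bind endosomal membrane lipids, and is among the genes by which mouse cDC1 are listed. The probe (chromosome 9, bases 65913518 to 65913577, minus strand) was at -0.67 and -0.01 in Fr1, -0.18 and -1.27 in Fr2, and -0.39 and 0.24 in Fr3. Like Wdfy4 it was above background everywhere and overlapped between all fractions. The difference was -0.26 between Fr1 and Fr3 (95% interval -1.79 to 1.27, limma adjusted p = 0.947), 0.39 between Fr1 and Fr2 (-1.14 to 1.92) and -0.65 between Fr2 and Fr3 (-2.18 to 0.88).

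Naaa encodes a lysosomal amidase that breaks down N-acylethanolamines, and macrophages make it as well as cDC1. The probe (chromosome 5, bases 92687671 to 92687730, minus strand) was at -3.83 and -0.91 in Fr1, -0.29 and -0.96 in Fr2, and -2.28 and -1.02 in Fr3. The lowest array was Fr1 replicate 1, the one spot of the 6 that was not well above background, and the Fr2 arrays were just above both Fr3 arrays. The difference was -0.72 between Fr1 and Fr3 (SE 1.02, limma adjusted p = 0.890), -1.74 between Fr1 and Fr2 (adjusted p = 0.615) and 1.02 between Fr2 and Fr3 (adjusted p = 0.727). Naaa was thus the gene of the 8 with its lowest mean in Fr1.

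**Figure D3:**
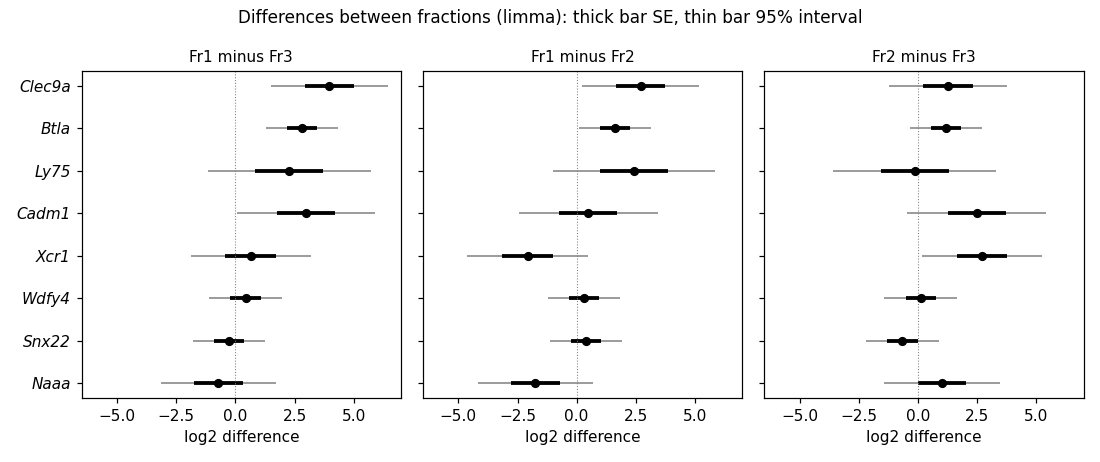
Log2 difference of the 8 genes in Fr1 minus Fr3, Fr1 minus Fr2 and Fr2 minus Fr3, with points for the limma estimate, thick bars for 1 SE and thin bars for the 95% interval. The interval lies above 0 for Clec9a, Btla and Cadm1 in Fr1 minus Fr3, for Clec9a and Btla in Fr1 minus Fr2 and for Xcr1 in Fr2 minus Fr3, before adjustment over all genes.

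The chosen probes of Clec9a, Btla and Ly75 passed the filter on dim probes through their Fr1 arrays alone, and that of Xcr1 through its Fr2 arrays alone. Their entry into the test thus depended on the fraction in which they were high. The counts, medians, sums and means over the 8 genes describe these probes and do not support a direction.

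Over the 8 genes, Fr1 against Fr3 gave 6 positive and 2 negative differences. Clec9a, Cadm1 and Btla, 3 of 8, had an unadjusted p under 0.05 and were higher in Fr1, a rule met by 2.8% of all genes, and none of the 8 was on the Fr3 side, where 5.36% of all genes were. The same 3 were those whose Fr1 arrays lay above both Fr3 arrays, which held for 13.7% of all genes; the opposite held for none of the 8 and for 21.9% of all genes. The median difference of the 8 was 1.46, or 1.04 with the dim Fr3 levels of Clec9a and Btla set at their bounds, against -0.05 over all genes. It was 0.36 without Fr3 replicate 2.

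Fr1 against Fr2 also gave 6 positive and 2 negative differences, the negative ones being Xcr1 and Naaa. Clec9a and Btla had an unadjusted p under 0.05 and were higher in Fr1, 2 of 8 genes against 3.35% of all, and none was on the Fr2 side, against 6.42% of all. The arrays did not overlap with Fr1 higher for 3 of the 8 (Clec9a, Btla and Ly75), against 22.7% of all genes, and with Fr2 higher for 1 (Xcr1), against 22.2%. The median difference was 0.44, against 0.04 over all genes.

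Fr2 against Fr3 gave 6 positive and 2 negative differences, Snx22 and Ly75 being the negative ones. Xcr1 alone had an unadjusted p under 0.05 and was higher in Fr2, 1 of 8 against 4.84% of all genes, and none was on the Fr3 side, against 4.06%. The arrays did not overlap with Fr2 higher for 4 of the 8 (Xcr1, Cadm1, Naaa and Btla), against 19.4% of all genes, and with Fr3 higher for 0, against 22.6%. The median difference was 1.11, but 0.06 with dim levels set at their bounds, against -0.08 over all genes. The comparisons share arrays, so their values stand side by side and are not independent of each other.

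The summed linear level of the 8 genes was 14.4 to 14.9 times the 75th percentile in Fr1, 8.87 to 14.4 times in Fr2 and 5.30 to 8.65 times in Fr3. Fr1 and Fr3 did not overlap on this sum, and Fr2 replicate 1 reached the Fr1 level. Most of the sum on each array came from Cadm1 and Wdfy4. Cadm1 entered by its probe with 45% T, whose gap between Fr3 replicates was -3.99. The mean log2 level was -0.06 and 0.06 in Fr1, -0.51 and -0.51 in Fr2, and -1.07 and -1.96 in Fr3. The sum and the mean include the probes that passed the filter on dim probes through a single fraction, so neither supports a direction. The genes with levels most like this mean over the 6 arrays were Adamdec1 (Pearson r = 0.988), Pkp2 (0.986), Dhx15 (0.983), Adpgk (0.974) and Ube3c (0.973), given as a description over 6 arrays out of 20817 genes. Adamdec1, a secreted metalloprotease gene of tissue phagocytes, was at 2.83 and 2.84 in Fr1, 1.64 and 2.05 in Fr2, and -0.29 and -2.14 in Fr3.

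The gap between replicates is given here by T content, first over all kept probes and then for the T-rich probes of Cadm1, Ly75 and Btla. Among all kept probes, replicate 2 minus replicate 1 of Fr3 had a median of 0.71 at up to 20% T, 0.52 from 20 to 30%, -0.04 from 30 to 40% and -1.69 above 40%. In Fr1 the medians were 0.45, 0.36, -0.15 and -0.96, and in Fr2 0.17, 0.03, -0.08 and 0.03. The Cadm1 and Ly75 probes above 40% T had gaps of -3.99 and -4.58 in Fr3, further from 0 than the median of that bin, each against a replicate 2 spot that was not well above background. The Btla probe with 38.3% T had a gap of 0.60 between Fr3 spots that were both not well above background, so nothing can be read from it. The part of probe composition in the differences of single genes was not tested.

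**Figure D4:**
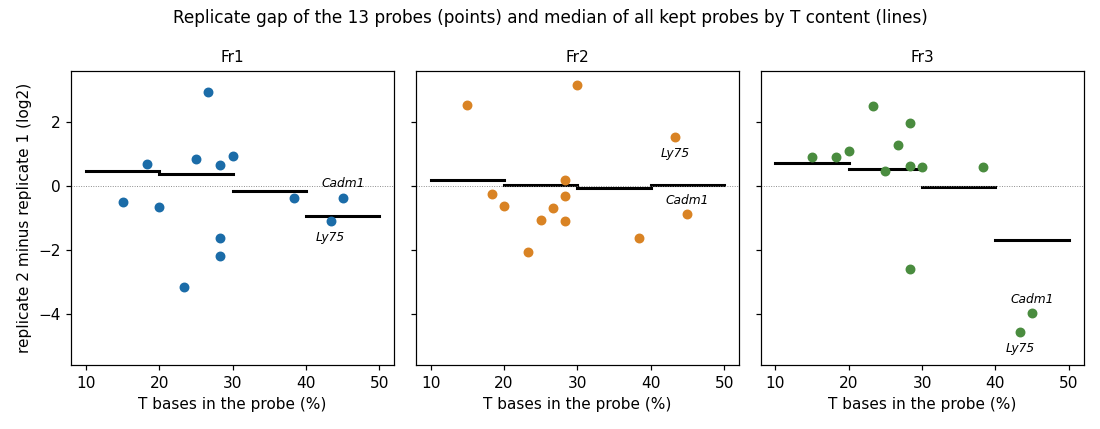
Replicate 2 minus replicate 1 (log2) against the share of T bases in the probe for the 13 probes (points) in Fr1, Fr2 and Fr3, with black lines for the median of all kept probes with up to 20%, 20 to 30%, 30 to 40% and over 40% T. In Fr3 the Cadm1 and Ly75 probes with over 40% T lie near -4 or below, and the median line of all probes in that bin is at -1.69.

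Other genes of cDC1 were read from a list of 20, all on the array and 13 with a kept probe. None was called in any comparison (limma, adjusted p under 0.05). In Fr1 against Fr3, 2 of the 13 had an unadjusted p under 0.05 and were higher in Fr1, and none was higher in Fr3, against 2.8% and 5.36% of all genes. In Fr1 against Fr2 there were 2 on the Fr1 side and 1 on the Fr2 side (3.35% and 6.42% of all genes), and in Fr2 against Fr3 there was 1 on the Fr2 side (4.84% of all). These were Itgae and Irf8 on the Fr1 side and Cd24a on the Fr2 side. The list medians were 0.32, -0.59 and 0.48 in these comparisons. Batf3, the transcription factor that cDC1 need to develop, was not well above background on any array. A signal that dim does not show that the transcript was absent.

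Itgae was the companion gene with the smallest p. It was at -1.75 and -1.50 in Fr1, -4.81 and -4.87 in Fr2, and -4.71 and -4.18 in Fr3, and both Fr1 arrays were well above background while no other array was. It was at least 1.55-fold higher in Fr1 than in Fr3 (limma adjusted p = 0.232) and at least 1.99-fold higher in Fr1 than in Fr2 (adjusted p = 0.240). Its pattern over the arrays was that of the Btla probe with 38.3% T, above background in Fr1 and nowhere else. Itgae thus passed the filter on dim probes through Fr1 alone, and the companion counts that include it do not support a direction.

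Irf8, the transcription factor that directs progenitors to the cDC1 and plasmacytoid lineages, was at 1.67 and 0.88 in Fr1, 0.10 and -0.94 in Fr2, and -0.55 and -0.35 in Fr3. The Fr1 arrays were above all others, with a difference of 1.73 from Fr3 (SE 0.63, limma adjusted p = 0.537). Cd24a, a surface glycoprotein gene of cDC1 and also of neutrophils and epithelium, was at 3.74 and 3.68 in Fr1, 4.75 and 5.75 in Fr2, and 2.59 and 2.42 in Fr3. It was highest in Fr2, as Xcr1 was. Nfil3, a transcription factor gene upstream of cDC1 development, was at 2.85 and 2.12 in Fr1, 3.66 and 3.52 in Fr2, and 3.28 and 4.03 in Fr3, lowest in Fr1 (difference from Fr3 -1.17, limma adjusted p = 0.622).

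Cross-presentation also uses machinery that is not particular to cDC1. It includes the peptide transporter TAP, the loading complex, the trimming enzyme ERAP1, the Sec61 channel and vesicle fusion proteins. Subunits of the immunoproteasome and of the phagocyte oxidase, Cyba among them, were also on the list. Of 26 such genes 25 were on the array by name and 24 had a kept probe, and none was called in any comparison. In Fr1 against Fr3, 2 had an unadjusted p under 0.05 and both, Erap1 and Calr, were higher in Fr3 (5.36% of all genes were). In Fr1 against Fr2, 3 were higher in Fr2 (Sec22b, Rab27a and Cyba), against 6.42% of all genes, and in Fr2 against Fr3, 1 was higher in Fr2 (Cyba), against 4.84%. Sec22b, Rab27a and Cyba are named after their values were seen. Rab27a passed the filter on dim probes through Fr2 alone, so the count with it does not support a direction. The list medians were -0.19, -0.47 and 0.28.

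Erap1, which trims peptides in the endoplasmic reticulum, was at -2.60 and -4.10 in Fr1, not well above background, -1.41 and -1.64 in Fr2, and -1.28 and 0.80 in Fr3. The bound put Fr3 at least 3.23-fold higher than Fr1 (limma adjusted p = 0.391), opposite in direction to Clec9a and Btla. Tap2, a subunit of the peptide transporter, was at 2.67 and 2.36 in Fr1, 2.61 and 2.63 in Fr2, and 1.87 and 0.27 in Fr3, with a difference between Fr1 and Fr3 of 1.44 (SE 0.68, limma adjusted p = 0.622). Both Fr3 arrays of Tap2 were below the other 4. Calr, the chaperone calreticulin, was at -0.18 and -0.94 in Fr1, 0.93 and -0.42 in Fr2, and 1.25 and 1.00 in Fr3, lower on both Fr1 arrays than on either Fr3 array.

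Genes shared by all conventional dendritic cells numbered 11, all tested and none called. In Fr1 against Fr3, 2 had an unadjusted p under 0.05 and were higher in Fr1 (Bcl11a and Itgax) and none was higher in Fr3, against 2.8% and 5.36% of all genes. In Fr1 against Fr2 there were 2 on the Fr1 side (Bcl11a and Traf1), against 3.35% of all, and in Fr2 against Fr3 none. Itgax encodes CD11c, on which Fr1 was gated, and the Bcl11a probe passed the filter on dim probes through Fr1 alone. The counts with these genes thus do not support a direction. The list medians were 0.58, 0.82 and 0.25. Bcl11a, a transcription factor gene of dendritic and B lineages, was at 1.16 and -1.30 in Fr1, -1.85 and -3.42 in Fr2, and -4.55 and -3.38 in Fr3. Zbtb46, the transcription factor gene that marks conventional dendritic cells, was at 2.65 and 1.83 in Fr1, 2.19 and 2.43 in Fr2, and 1.64 and -3.38 in Fr3. For Zbtb46 Fr1 and Fr2 overlapped and the low value was that of Fr3 replicate 2, as for Cadm1 and Ly75.

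**Figure D5:**
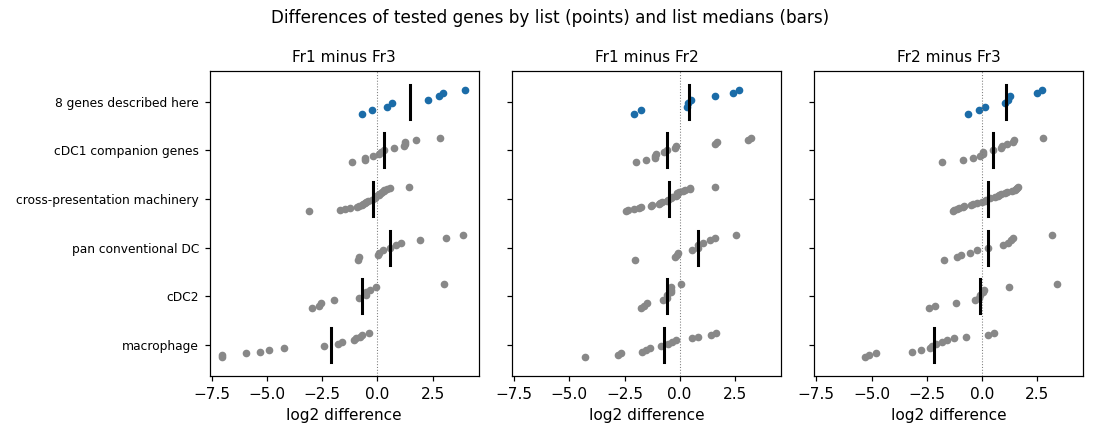
Log2 differences in Fr1 minus Fr3, Fr1 minus Fr2 and Fr2 minus Fr3 for the tested genes of 6 lists (points) with the list medians (black bars). The 8 genes described here have medians of 1.46, 0.44 and 1.11, against 0.32, -0.59 and 0.48 for the companion genes and -0.19, -0.47 and 0.28 for the cross-presentation machinery.

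Other dendritic cells and NK cells carry some of the same genes, Ly75 in Langerhans cells and mature dendritic cells and Clec9a in mouse plasmacytoid dendritic cells, and several of their lists were higher in Fr1 along with Clec9a, Btla and Ly75. The summed level of 7 Langerhans cell genes was 28.7 to 33.7 times the 75th percentile in Fr1, 20.4 to 24.2 times in Fr2 and 7.32 to 9.21 times in Fr3. That of 8 NK cell genes was 34.8 to 37.6 times in Fr1, 16.0 to 25.1 times in Fr2 and 14.7 to 16.3 times in Fr3. In both lists the Fr1 arrays lay above all others, and 3 of 5 tested Langerhans cell genes and 3 of 8 tested NK cell genes had an unadjusted p under 0.05 and were higher in Fr1 than in Fr3, against 2.8% of all genes. Of the Langerhans cell list Lad1 was not well above background on any array, and of the NK cell list Gzmb was not in Fr2 or Fr3. Gzmb, and Cldn1 of the Langerhans cell list, passed the filter on dim probes through Fr1 alone, so the counts with them do not support a direction.

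Among the 11 plasmacytoid dendritic cell genes, Spib and Ccr9 were also higher in Fr1. Spib, a transcription factor gene of these cells and of B cells, was at 3.06 and 0.69 in Fr1, -3.23 and -4.67 in Fr2, and -4.13 and -3.97 in Fr3. Ccr9, a chemokine receptor gene of these cells and of gut-homing T cells, was at 1.66 and 1.45 in Fr1, -4.32 and -3.27 in Fr2, and -4.90 and -2.81 in Fr3. Both were well above background on the Fr1 arrays and on no other, and were named after their values were seen. They thus passed the filter on dim probes through Fr1 alone, and the counts below that include them do not support a direction. Spib was at least 17.6-fold higher in Fr1 than in Fr3 (limma adjusted p = 0.147) and at least 22.6-fold higher than in Fr2 (adjusted p = 0.239). Ccr9 was at least 14.1-fold higher in Fr1 than in Fr3 (limma adjusted p = 0.145) and at least 18.0-fold higher than in Fr2 (adjusted p = 0.239). Of the 11 genes of the list, 2 had an unadjusted p under 0.05 and were higher in Fr1 than in Fr3 (2.8% of all genes were), and 3 were higher in Fr1 than in Fr2 (3.35% of all). The differences of the list were 9 positive and 2 negative against Fr3 (median 0.51), and 10 positive and 1 negative against Fr2 (median 0.95).

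The summed level of the 11 plasmacytoid dendritic cell genes was 200 to 238 times in Fr1, 146 to 148 times in Fr2 and 171 to 222 times in Fr3, and it was carried by Siglech, whose level was between 6.91 and 7.77 on every array. For 14 mature migratory dendritic cell genes the sum was 91.4 to 113, 54.8 to 61.2 and 84.3 to 155 times. Of 11 tested, 4 had a limma unadjusted p under 0.05 and were higher in Fr1 than in Fr3, against 2.8% of all genes. None was higher in Fr3, against 5.36%. The median difference was 1.24, or 0.98 with dim levels set at their bounds. Ccl22, 1 of the 4, passed the filter on dim probes through Fr1 alone, so this count does not support a direction. For 11 cDC2 genes the sum was 1992 to 2153 times in Fr1, 2011 to 2142 times in Fr2 and 2153 to 2819 times in Fr3. It was carried by Itgam, whose level was between 10.7 and 11.3 on every array. Of 10 tested cDC2 genes, 9 were lower in Fr1 than in Fr3 (median difference -0.68). On the Fr3 side 4 had a limma unadjusted p under 0.05, against 5.36% of all genes, and none on the Fr1 side. In the first 2 of these 3 lists the sum in Fr1 overlapped that in Fr3 but not that in Fr2. The 15 macrophage genes had their highest sums in Fr3, with 113 to 119 times in Fr1, 191 to 398 times in Fr2 and 680 to 895 times in Fr3. Mrc1, Mertk and Lyve1 were not above background in Fr1. The part of these cells in the levels of Clec9a, Btla and Ly75 was not tested.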

How the data were processed

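The spot intensity values of 6 one-colour Agilent arrays were, per the file headers, made by the authors with the scanner software Feature Extraction 11.5.1.1. The authors' deposited table holds log2 values with column medians of -2.43 to -2.25 and a 75th percentile of 0 to 0.01; it correlated with the scanner values at r of at least 0.999 and served as an alternative, its scale, centring and direction being settled by this.

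From the processed intensity, spots of a probe were averaged, and log2 values were set against each array's 75th percentile. A filter on dim probes asked for a fraction with both arrays well above background and kept 27867 probes, after 4 probes with an outlier flag were left out. The brightest kept probe stood for each of 20817 genes. Names were updated through RefSeq (32994 probes by accession, 10224 by symbol, 520 by synonym, 12867 as in the files), with none of the members' names disagreeing. limma 3.58.1 (R 4.3.3; Python 3.11.15) was fitted with 3 fraction means over 6 arrays, and p-values were adjusted over all genes. "At least N-fold" sets the brighter fraction's mean against a floor for the dim fraction, which on each array is the lowest signal called well above background or, if higher, that of the probe itself. The fit was tested on simulated data. The number of arrays limits precision. The members, the lists from general knowledge and the rule for named genes were chosen with earlier results of these data known. The rule took every member and the sort marker genes Itgax, Adgre1 and Mrc1. From 3 dendritic cell lists it took up to 4 genes with the smallest p in Fr1 against Fr3. From each other list it took the brightest genes by mean level. It also took the 5 genes most like the members' mean. Genes named only as dim list members, or after their values were seen, are outside that rule. Some marker genes are not reported here.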

Additional observations from a re-analysis of the deposited data

How the results depend on the processing

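The 8 genes gave 350 values under the alternatives over 24 pairs of gene and comparison. Many of these values could not differ from the main one. The replicate block, arrays of 1 slide only and leaving out an array of the third fraction cannot change a difference. Settings on probe choice change it only where another probe is taken, and the deposited table holds nearly the same values. A kept direction under these does not show stability. With that limit, 12 pairs kept their direction under every alternative run. Among them were Btla in all 3 comparisons, Clec9a and Wdfy4 in Fr1 against Fr3, and Xcr1 in Fr1 against Fr2 and in Fr2 against Fr3. In the other 12 pairs, 20 values had the opposite sign, and the cause was not tested. In Fr1 against Fr3 these were Naaa 0.037 with normexp background, Cadm1 -0.036 with probes above background on all arrays, Xcr1 -0.46, Naaa 0.74 and Snx22 0.065 without Fr1 replicate 1, and Xcr1 -0.66, Snx22 0.048 and Ly75 -0.010 without Fr3 replicate 2. In Fr1 against Fr2 they were Cadm1 -0.89 with probes over 30% T left out, Wdfy4 -0.11 without Fr1 replicate 2, and Wdfy4 -0.23 and Snx22 -0.16 without Fr2 replicate 2. In Fr2 against Fr3 they were Ly75 0.049 with quantile normalization, Clec9a -0.29 with no filter, Cadm1 -0.84 with probes above background on all arrays, Wdfy4 -0.41 and Ly75 0.62 without Fr2 replicate 1, Clec9a -0.30 without Fr2 replicate 2, and Wdfy4 -0.11 and Ly75 2.15 without Fr3 replicate 1. With 1 array left out, the range in Fr1 against Fr3 was -0.66 to 1.95 for Xcr1, -2.18 to 0.74 for Naaa, -0.59 to 0.065 for Snx22 and -0.010 to 4.57 for Ly75. It was -0.23 to 0.85 for Wdfy4 and -0.16 to 0.93 for Snx22 in Fr1 against Fr2, and -0.30 to 2.84 for Clec9a, -0.41 to 0.66 for Wdfy4 and -2.43 to 2.15 for Ly75 in Fr2 against Fr3. Only without Fr3 replicate 1 was a member called: Cadm1 4.98 (limma adjusted p = 0.0166) and Ly75 4.57 (0.0290) in Fr1 against Fr3, and Cadm1 4.48 (0.0272) in Fr2 against Fr3.

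The median difference of the members in Fr1 against Fr3, 1.46, was 0.26 with normexp background, whose offset of 50 is of the size of these intensities, and 0.36 to 2.29 with 1 array left out, lowest without Fr3 replicate 2. With probes above background on all arrays, which left 3 members (Cadm1, Wdfy4 and Snx22), it was -0.036 in Fr1 against Fr3 and -0.65 in Fr2 against Fr3. With normexp background the median was 0.167 in Fr1 against Fr2 (0.44 otherwise) and 0.125 in Fr2 against Fr3 (1.11 otherwise); with no filter on dim probes the Fr2 to Fr3 median was 0.574, and with probes over 30% T left out the Fr1 to Fr3 median was 0.644. Leaving out 1 array gave -0.05 to 0.93 in Fr1 against Fr2 and 0.78 to 1.11 in Fr2 against Fr3.

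Genes called in Fr1 against Fr3 numbered 1, and 0 with normexp background, no filter, every kept probe on its own, arrays of 1 slide only and the replicate block, 12 with probes over 30% T left out, and 0 to 1395 with 1 array left out. In Fr1 against Fr2 they numbered 0 (2034 at an unadjusted p under 0.05), 7 with probes over 30% T left out and 0 to 3 with 1 array left out. In Fr2 against Fr3 they numbered 1, and 7 with normexp background, 14 with probes above background on all arrays, 56 with probes over 30% T left out, 0 with the replicate block and 0 to 933 with 1 array left out. The highest counts against Fr3, 1395 and 933, came without Fr3 replicate 1, where the spread comes from Fr1 and Fr2 alone. Same-numbered replicates of Fr1 and Fr3 deviated together (r = 0.433, across genes), those of Fr1 and Fr2 (0.118) and of Fr2 and Fr3 (0.0458) less. The numbers were therefore not taken to pair the samples. With the replicate block the median difference stayed at 1.46, 0.44 and 1.11. That was fixed in advance, because each fraction holds both replicate numbers, and only the SE and the p-values can change. The unchanged medians thus do not bear on the pairing.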
